A study of Mus musculus with 8 samples.

Results

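The CpGs described here belong to *Nr4a1*, *Nr4a2* and *Nr4a3*, the members of the NR4A family of nuclear receptors, in neural precursor cells (NPCs) after knockdown (KD) of *Tet3*. They are the CpGs listed from 5 kb upstream of the first transcription start site (TSS) to the end of each gene in the mouse genome build mm9. The loci held 326 of the 757812 CpGs of the series, with 56 at *Nr4a1*, 119 at *Nr4a2* and 151 at *Nr4a3*. Promoters were taken from −1 kb to +0.5 kb of every TSS of a protein-coding transcript, and the rest of each gene was called its body. The genes were selected on measured values, namely CpGs near the TSSs of *Nr4a1* and *Nr4a3* that had higher 5mC in the KD in the oxBS libraries. *Nr4a2* was added as the remaining member of the family. The oxBS difference between the shRNAs therefore chose the genes, and it is given below as a description with no test. The BS libraries were not used for that choice, and the tests below are on them, although they are taken to come from the same DNA samples.

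The cells were A2lox.cre mouse ES cells, which derive from the male E14 line of strain 129P2/OlaHsd and carry 1 inducible shRNA per line at a recombination site. They were differentiated into NPCs through aggregates treated with retinoic acid. All groups, the controls included, received doxycycline at 2 µg/ml for 5 days, which switched on either a non-targeting shRNA (shScr, the control) or one that targets *Tet3* (shTet3). Each shRNA had 2 replicates, and each replicate gave a library after bisulphite (BS, in which 5mC and 5hmC both remain C) and another after oxidation and bisulphite (oxBS, in which 5mC alone does). Nothing in the labels says whether the replicates were separate cultures or differentiations, so that the spread between them may be technical. The files hold DNA methylation alone, so neither the level of *Tet3* nor the identity of the cells was checked here. In bulk DNA, a change in the share of cells with a methylated CpG and a change in the makeup of the culture cannot be told apart.

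Total calls ranged from 42516767 to 61865967 over the 8 libraries, and the median CpG had a coverage of 43 to 54. A CpG was tested when its coverage was at least 10 in the 4 libraries compared. It was called a differentially methylated position (DMP) when a logistic regression with a likelihood ratio test gave a *q* value below 0.01, adjusted over all CpGs of the table, and when the pooled levels differed by more than 10 percentage points. Over the whole table, the BS level of shTet3 was on average −6.77 percentage points from that of shScr, and in genes outside promoters it was −11.0. The shScr replicates themselves differed, with whole-table means of 26.5% and 31.3% against 22.0% and 22.3% in shTet3. In genes outside promoters the means were 47.3% and 55.1% in shScr against 39.7% and 40.8% in shTet3. In the BS libraries 13.8% of all CpGs tested were lower in shTet3 (hypo-DMPs) and 0.0621% were higher (hyper-DMPs). The members are read against this background.

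NR4A receptors are called orphan receptors because they act as transcription factors without a known hormone that switches them on. They bind DNA as monomers at a site known as the NBRE, and *Nr4a1* (Nur77) and *Nr4a2* (Nurr1) can also pair with the retinoid X receptors. The genes are immediate early genes: stimuli that activate the factor CREB induce them within minutes, through cAMP response elements (CREs) close to their TSSs, and *Nr4a2* is also needed for the making of midbrain dopaminergic neurons. CpG-rich promoters like theirs are usually free of methylation, whereas the bodies of genes often carry it. TET3 oxidises 5mC to 5hmC, a step on one of the routes by which methylation is removed.

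*Nr4a1* (ENSMUSG00000023034) lies on chromosome 15, from 101097277 to 101105223 on the forward strand, and has 1 annotated coding TSS. *Nr4a2* (ENSMUSG00000026826) lies on chromosome 2, from 56959241 to 56976414 on the reverse strand, with 3 coding TSSs. *Nr4a3* (ENSMUSG00000028341) lies on chromosome 4, from 48058025 to 48099319 on the forward strand, with 2 coding TSSs. The stretches on which the results turn are printed from the mm9 genome (NCBIM37), forward strand, with the measured CpGs in capitals. The first pair lies directly upstream of TSSs, and the others lie in coding exons and, for the short one, in the first intron of *Nr4a3*.
*Nr4a1*, upstream of the TSS, chr15:101097192-101097276: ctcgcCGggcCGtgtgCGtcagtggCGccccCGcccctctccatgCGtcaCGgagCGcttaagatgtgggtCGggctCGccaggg
*Nr4a3*, upstream of the first TSS, chr4:48057915-48058024: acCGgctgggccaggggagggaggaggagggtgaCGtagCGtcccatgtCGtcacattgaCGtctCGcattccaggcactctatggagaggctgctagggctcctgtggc
*Nr4a1*, coding exon, chr15:101100538-101100812: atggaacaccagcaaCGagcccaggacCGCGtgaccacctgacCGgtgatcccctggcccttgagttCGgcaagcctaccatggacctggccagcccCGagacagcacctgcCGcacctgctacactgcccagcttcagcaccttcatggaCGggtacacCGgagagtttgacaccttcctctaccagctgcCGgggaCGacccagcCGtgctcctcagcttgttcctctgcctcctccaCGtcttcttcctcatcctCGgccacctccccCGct
*Nr4a2*, coding exon, chr2:56964287-56964510: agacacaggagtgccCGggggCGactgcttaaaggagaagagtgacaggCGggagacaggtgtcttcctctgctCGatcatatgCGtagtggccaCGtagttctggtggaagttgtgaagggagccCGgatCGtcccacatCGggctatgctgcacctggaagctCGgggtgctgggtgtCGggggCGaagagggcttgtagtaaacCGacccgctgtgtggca
*Nr4a3*, first intron, chr4:48059498-48059529: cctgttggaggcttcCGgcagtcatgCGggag
*Nr4a3*, coding exon, chr4:48064581-48064639: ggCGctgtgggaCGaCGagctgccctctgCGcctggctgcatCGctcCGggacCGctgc

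Promoter windows from 250 bases before each TSS to 50 from it on were searched on both strands for the CRE (TGACGTCA), its half-site (TGACG, of which each CRE holds one on either strand) and the NBRE (AAAGGTCA). The half-site occurred 4 times in the *Nr4a1* window, 4 times in the window of the first *Nr4a3* TSS and 0 times in that of the second. It occurred 4, 3 and 1 times in the windows of the *Nr4a2* TSSs at 56976414, 56967449 and 56965483. Of the 45982 windows of coding TSSs, 23.5% had at least 1 match. The whole CRE was found once, at the middle *Nr4a2* TSS, against 2.13% of all windows. The NBRE was in none of the windows of the members, against 1.22% of all. The observed over expected ratio of CpG was 0.913 at *Nr4a1*, 0.947 and 0.589 at the first and second *Nr4a3* TSS, and 1.04, 0.957 and 0.184 at the *Nr4a2* TSSs at 56976414, 56967449 and 56965483, where the median of all windows was 0.549. The window of the last of these *Nr4a2* TSSs was thus poor in CpG. Each half-site holds a CpG, and 4 of those in *Nr4a1*, 4 in *Nr4a3* and 1 in *Nr4a2* were measured. The half-site closest to the TSS of *Nr4a1* holds the CpG at −40, which is described below.

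The family divided into promoters almost free of methylation and a promoter with low to intermediate levels. All 66 promoter CpGs of *Nr4a2* and all 39 of *Nr4a3* that were covered in the 8 libraries stayed under 10% in every library, and 40 and 17 of them were at 0 throughout. At *Nr4a1*, 10 of 24 stayed under 10% in every library, and the highest level was 74.2%. The bodies were methylated to different degrees: 19 of the 22 CpGs in the body of *Nr4a1* were above 50% in every library, as were 4 of 41 in *Nr4a2* and none of 32 in *Nr4a3*. The plot of mean levels by library shows this order.

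**Figure D1:**
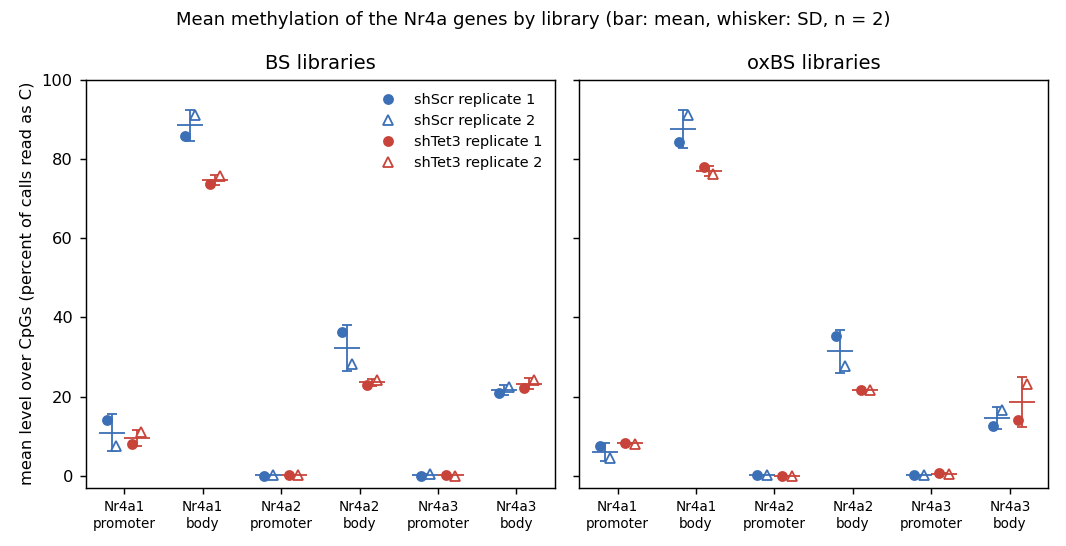
Mean methylation of promoters and bodies of the Nr4a genes in each BS (left) and oxBS (right) library, in percent of calls read as C, with circles and triangles for replicates 1 and 2, bars for means and whiskers for the SD (n = 2). The body of Nr4a1 was lower in both shTet3 libraries than in both shScr libraries, as was the body of Nr4a2, while the body of Nr4a3 was not, and the promoters of Nr4a2 and Nr4a3 sat near 0.

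The *Nr4a1* promoter had a mean BS level, over 24 CpGs, of 14.2% and 7.58% in the shScr replicates and of 8.09% and 11.0% in the shTet3 replicates. The shRNAs overlapped, and the difference of −1.32 percentage points was smaller than the pooled SD between replicates of 3.59 (two-sided exact permutation test, p = 1.0, where 2 libraries against 2 cannot go below 0.33). The direction rested on single libraries, since the difference was 1.97 without shScr replicate 1, 0.138 without shTet3 replicate 1 and 2.61 with levels weighted by reads. In the oxBS libraries, which chose the gene, the level over 29 CpGs was 7.57% and 4.48% in shScr against 8.29% and 8.08% in shTet3. There the shTet3 libraries lay above both shScr libraries, by 2.16 percentage points on average.

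Hyper-DMPs of the oxBS libraries were found at 3 of the 29 CpGs of the *Nr4a1* promoter, and it is these calls that brought the gene into the set. Among promoter CpGs of all genes 0.0542% were hyper-DMPs and 2.00% hypo-DMPs in the oxBS libraries, and 0.0947% of genes with at least 3 CpGs tested had 3 or more hyper-DMPs. All 3 lie within 54 bases of the TSS. At −54 (position 101097223), oxBS levels were 1.83% and 4.76% in shScr against 25.3% and 8.82% in shTet3 (coverage 68 to 109). At −40 (position 101097237), in the CRE half-site, they were 3.70% and 3.77% in shScr against 16.1% and 11.8% in shTet3. At −30 (position 101097247), they were 4.63% and 3.77% in shScr against 16.1% and 16.2% in shTet3. At each of these CpGs both shTet3 replicates were above both shScr replicates. The difference was most even between replicates at −30, while at −54 it came mainly from shTet3 replicate 1, without which the pooled difference was 5.55 instead of 14.8 percentage points. The number of hyper-DMPs in this promoter was 1 without shTet3 replicate 1, 4 without shTet3 replicate 2, 2 without shScr replicate 1 and 1 without shScr replicate 2. Just inside the limit of 10 points was the CpG at −40, with a pooled difference of 10.5, and just outside it was the CpG at −8, with 7.70. The intron CpGs at +480 and +431 had larger differences, of 20.2 and 16.9, but missed the limit on *q*.

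None of the same 3 CpGs was a DMP in the BS libraries. At −54, BS levels were 9.41% (95% Wilson interval 4.85 to 17.5) and 9.16% in shScr against 12.7% and 16.1% (9.0 to 27.2) in shTet3, a pooled difference of 5.27 percentage points (*q* = 0.388). At −40, they were 15.3% and 4.44% in shScr against 5.45% and 8.06% in shTet3, a difference of −1.80 (*q* = 0.952). At −30, they were 28.2% and 6.67% in shScr against 14.8% and 11.3% in shTet3, a difference of −2.07 (*q* = 1.0). At −54 both shTet3 replicates were above both shScr replicates in BS as well, by less than the call asks for. At −40 and −30 the shTet3 replicates lay between the shScr replicates, of which replicate 1 was the highest of all BS libraries. Of the 24 promoter CpGs tested none was a DMP in the BS libraries, whether by the likelihood ratio test, by Fisher's exact test on pooled counts (0) or by an F test with overdispersion (0). With 2 libraries a group, the F test could hardly reach the limit on *q* at any CpG. A 0 from it, here and below, therefore says little about a call or its absence. At an unadjusted p under 0.05, 2 were higher and 2 were lower. Over all promoters 0.0395% of CpGs were hyper-DMPs and 1.86% hypo-DMPs in the BS libraries, and 0.0553% of genes had 3 or more hyper-DMPs, so that few calls were to be found in 24 CpGs. Both shTet3 libraries were above both shScr libraries at 3 of the 24 and below at 2, against 1.96% and 26.1% of all CpGs. These shares are over all CpGs and not over promoters alone. The CpGs from −80 to −8 had similar coverages in each library, as neighbours on one MspI fragment do, and are not independent measurements.

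**Figure D2:**
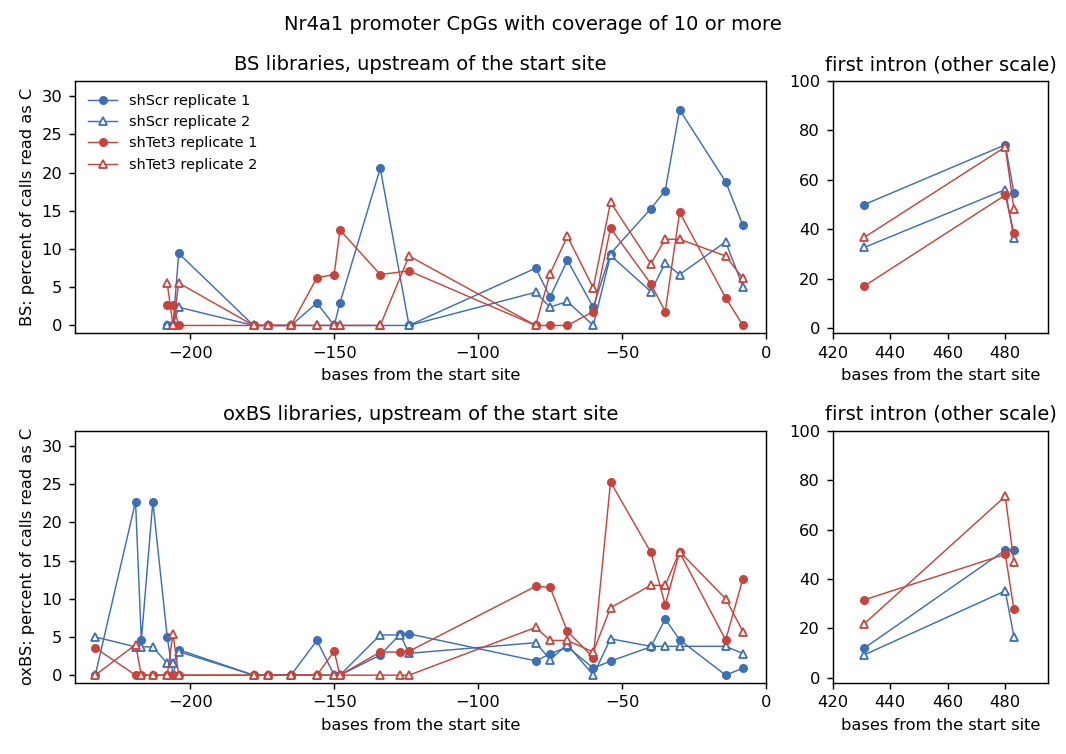
Levels of the Nr4a1 promoter CpGs, in percent of calls read as C, against the distance from the TSS in bases, in BS (top) and oxBS (bottom) libraries, with the first intron on a scale of its own at the right. Between −60 and the TSS, both shTet3 libraries (red) lie above both shScr libraries (blue) in oxBS at −54, −40 and −30, whereas in BS shScr replicate 1 has the highest value at −30, 28.2%.

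BS minus oxBS estimates 5hmC. The authors detected few hydroxymethylated CpGs, at a high false discovery rate, and treated negative values as artefacts. The difference uses the oxBS libraries, so the values are a description. At the CpGs of the *Nr4a1* promoter covered in all libraries, BS exceeded oxBS by 7.31 and 3.06 percentage points in the shScr replicates, and by −1.65 and 1.40 in the shTet3 replicates. Both shScr values were thus above both shTet3 values. The 21 CpGs upstream of the TSS gave a mean of 2.89 in shScr and −0.521 in shTet3. The 3 intron CpGs described below gave 21.3 and 2.68. The difference between the shRNAs was not tested. Of the 298 CpGs of the loci compared in shScr, 1 had BS above oxBS by the criteria of a DMP and 0 had BS below oxBS, against 0.33% and 0.17% of all CpGs (unadjusted p under 0.05: 21 above and 15 below; 0 above and 0 below with the F test). The share called above was thus near that of the whole table. In a fit blocked by replicate, which pairs each BS library with the oxBS library of the same number, 2 were above. The CpG called, which was named after its values were seen, lies in the *Nr4a1* promoter, at −14 (position 101097263). There the level was 18.8% in BS and 0% in oxBS in shScr replicate 1, where 0 of 110 calls allows up to 2.73%, and 11.0% in BS and 3.77% in oxBS in shScr replicate 2. In shTet3, the levels were 3.64% in BS and 4.60% in oxBS in replicate 1, and 9.09% and 10% in replicate 2. BS was thus above oxBS in both shScr replicates and below it by less than 1 percentage point in both shTet3 replicates. Between the shRNAs, this CpG was lower in both shTet3 BS libraries than in both shScr BS libraries (pooled difference −7.35, *q* = 0.125), while in oxBS both shTet3 libraries were higher. In shTet3, 0 of 305 CpGs were called in either direction, against 0.0239% of all CpGs above and 0.0141% below (unadjusted p under 0.05: 14 above and 10 below; 0 with the F test or the block).

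The 3 CpGs in the first intron that belong to the *Nr4a1* promoter, at +431 to +483, had much higher levels than those upstream. Their mean was 59.7% and 41.7% in the BS libraries of shScr and 38.5% and 20.4% in the oxBS libraries of the same replicates. In shTet3 it was 36.4% and 52.8% in BS and 36.5% and 47.4% in oxBS. BS was above oxBS by about the same amount in both shScr replicates, 21.3 percentage points on average, against 2.68 in shTet3. None of these CpGs was called between BS and oxBS in either shRNA.

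The body of *Nr4a1* was heavily methylated in control NPCs and lower in the KD. Over 22 coding-exon CpGs, the mean BS level was 85.8% and 91.2% in shScr against 73.8% and 75.7% in shTet3, a difference of −13.7 percentage points against a pooled SD of 2.85. Both shTet3 libraries lay below both shScr libraries (two-sided exact permutation test, p = 0.33, the smallest possible). The mean of each of the 22 CpGs was lower in shTet3, and at 15 of them both shTet3 libraries were below both shScr libraries, against 26.1% of all CpGs. Of these 659124 CpGs, 321345 lay in promoters, with mean BS levels of 4.64% and 5.39% in shScr. The share was thus not matched for region or level. Leaving out single libraries gave differences between −16.4 and −11.0. The CpGs of all genes outside promoters fell by 11.0 percentage points on average over the same libraries.

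Of these 22 CpGs, 8 were hypo-DMPs in the BS libraries and none was a hyper-DMP (unadjusted p under 0.05: 16 lower and 0 higher). Of the CpGs of all genes outside promoters 23.5% were hypo-DMPs and 0.0877% hyper-DMPs, so that the share of hypo-DMPs lay above the background, although neighbouring CpGs share reads and no test was made of that excess. The background CpGs also had lower mean BS levels in shScr, of 47.3% and 55.1%. The shares were thus not matched for level. The count was 7 without shScr replicate 1, 2 without shScr replicate 2, 3 without shTet3 replicate 1 and 5 without shTet3 replicate 2, and it was 0 with an F test that takes in overdispersion. The largest fall was at position 101100689, with 68.6% and 89.1% in shScr against 50% and 52.4% in shTet3, a pooled difference of −29.5 percentage points (*q* = 3.28e-04) that was −16.9 and no longer called without shScr replicate 2. At position 101100635, levels were 93.1% and 94.2% in shScr against 69.6% and 73.5% in shTet3 (−21.9, *q* = 9.61e-07). At position 101103235, further along the gene, levels were 74.2% and 87.9% in shScr against 50% and 63.3% in shTet3 (−25.4, *q* = 3.21e-04). The other 5 had differences between −12.3 and −25.0 percentage points, and at 1 of them, position 101103190, shScr and shTet3 libraries overlapped. Without shTet3 replicate 1 the difference was −4.78 at position 101103190 and −9.13 at position 101103196, and without shTet3 replicate 2 it was −9.65 at position 101100796, all of them under 10 points. In the oxBS libraries, 5 of 22 CpGs were hypo-DMPs and the mean fell by 10.6 percentage points, with 23.0% of such CpGs in all genes called lower and 0.136% called higher.

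*Nr4a2* had promoters almost free of methylation where they were measured, and no listed CpG lay in the promoter of the TSS at 56965483. Over 67 promoter CpGs, the BS level was 0.0772% and 0.148% in shScr against 0.186% and 0.151% in shTet3, which is at the level of a few calls. No promoter CpG was a DMP in BS or oxBS libraries, by the likelihood ratio test, Fisher's exact test or the F test (unadjusted p under 0.05 in BS: 2 higher and 0 lower). Its body held several kinds of stretch. A pair of intron stretches, from 7454 to 7620 and from 9562 to 9630 bases after the first TSS, were near 0 like the promoters, with a highest mean of 1.19% in any library. The coding exon about 12 kb from the first TSS, a part of which is printed above, had intermediate levels. Its 13 CpGs averaged 56.8% and 50.9% in the BS libraries of shScr and 38.3% and 38.5% in those of shTet3. Both shTet3 libraries were below both shScr libraries, with a difference of −15.5 percentage points, and the oxBS libraries had a difference of −21.2.

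Over the 41 body CpGs of *Nr4a2* tested, the BS level was 36.3% and 28.2% in shScr against 23.0% and 24.2% in shTet3, a difference of −8.67 percentage points against a pooled SD of 4.12 (two-sided exact permutation test, p = 0.33, the smallest possible). The shScr replicates were 8.15 points apart, and without shScr replicate 1 the difference was −3.88, the smallest of the values with a library left out. The hypo-DMPs numbered 6 of 41, with no hyper-DMP (unadjusted p under 0.05: 15 lower and 0 higher), a share below the 23.5% of all genes. However, 17 of the 41 stayed under 10% in every library and could not fall by more than 10 points. The shares were not matched for level, so the lower share does not show that this body resisted the loss. The count was 1 without shScr replicate 1, 4 without shScr replicate 2, 2 without shTet3 replicate 1, 3 without shTet3 replicate 2 and 0 with the F test. At position 56964302, levels were 75.5% and 64.8% in shScr against 34.3% and 48.9% in shTet3 (−27.4, *q* = 1.55e-03). At position 56964494, they were 52.1% and 45.1% in shScr against 20% and 27.1% in shTet3 (−27.1, *q* = 5.32e-05). At position 56964361, they were 44.4% and 46.7% in shScr against 31.1% and 8.70% in shTet3 (−25.8, *q* = 9.61e-04). At each of the 6 both shTet3 libraries lay below both shScr libraries. The remaining 3 were at position 56964452 of the same exon and at positions 56963896 and 56963909 of an intron, and fell by 22.6, 25.6 and 24.2 percentage points. The last of these lost its call with the replicate block, with Fisher's exact test, with a coverage minimum of 5 and without any 1 of the libraries, with −38.5 without shTet3 replicate 1. Position 56964452 had −9.14, under 10 points, without shScr replicate 1, and position 56964361 had −14.5 and no call without shTet3 replicate 2.

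In the oxBS libraries 7 of 49 body CpGs of *Nr4a2* were hypo-DMPs, all of them in this coding exon, and none was a hyper-DMP. Of the CpGs of all genes outside promoters, 23.0% were hypo-DMPs and 0.136% hyper-DMPs in oxBS. The largest difference was at position 56964382, with 75% and 69.4% in shScr against 23.0% and 29.0% in shTet3, a pooled difference of −45.9 percentage points. The BS levels of the same CpG were 37.0% and 45.8% in shScr against 35.6% and 26.1% in shTet3 (−10.8, *q* = 0.308). The neighbour at position 56964371 had −44.4 in oxBS and −16.2 in BS. At both CpGs the oxBS level of shScr, from a coverage of only 16 in replicate 1, was above its BS level in both replicates, so that BS minus oxBS was below 0 there. With a coverage minimum of 20 in place of 10, 2 hypo-DMPs were left in the body of *Nr4a2* in oxBS.

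**Figure D3:**
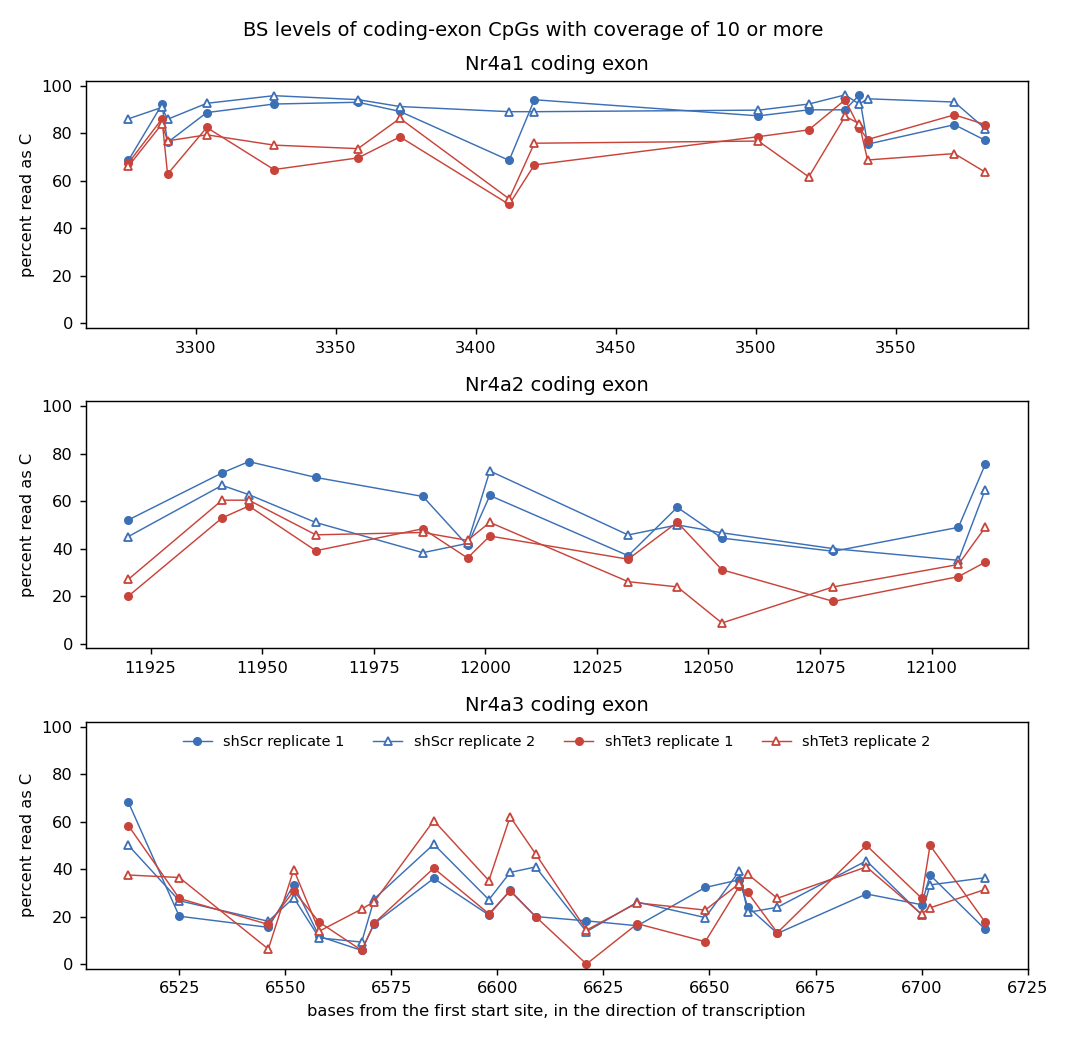
BS levels, in percent of calls read as C, of CpGs in a coding exon of Nr4a1 (top), Nr4a2 (middle) and Nr4a3 (bottom) against the distance from the first TSS in bases, for each replicate of shScr (blue) and shTet3 (red). The shTet3 libraries run below the shScr libraries along most of the Nr4a1 and Nr4a2 exons and are mixed with them in Nr4a3, where shTet3 replicate 2 reaches 62.1%.

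*Nr4a3* had an unmethylated promoter, an unmethylated stretch further upstream and a coding exon of low to intermediate level. No listed CpG lay in the promoter of the second TSS. The promoter of the first TSS had BS levels, over 41 CpGs, of 0.0556% and 0.400% in shScr against 0.283% and 0.0566% in shTet3. The 4 measured CpGs in CRE half-sites were at 0 in every library, except that position 48057964 had 3.09% and 0.781% in the BS libraries of shTet3 (pooled difference 1.78, *q* = 0.0362). No promoter CpG was a DMP in BS or oxBS by the likelihood ratio test, Fisher's exact test or the F test (unadjusted p under 0.05 in BS: 1 higher and 1 lower). Upstream, 64 of 65 CpGs stayed under 10% in every library.

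The body of *Nr4a3* did not share the fall of the other bodies. Over 35 CpGs, the BS level was 20.9% and 22.5% in shScr against 22.2% and 24.2% in shTet3, so that the shRNAs overlapped (difference 1.53 percentage points, pooled SD 1.27; two-sided exact permutation test, p = 0.67). No CpG was a hypo-DMP in BS, also with Fisher's exact test and the F test, whereas at an unadjusted p under 0.05 there were 1 lower and 4 higher. Of the CpGs of all genes outside promoters 23.5% were hypo-DMPs. Their mean BS levels in shScr were higher, at 47.3% and 55.1%. The shares were thus not matched for level and do not show that this body resisted the loss. Of the body CpGs 5 had both shTet3 libraries above both shScr libraries and 2 had both below, against 1.96% and 26.1% of all CpGs. The shares of all CpGs take in promoters and were not matched for region or level. The change in *Nr4a3* minus that in *Nr4a1* was 15.3 percentage points, from a gap between the bodies of −64.9 and −68.7 in the shScr libraries and −51.6 and −51.5 in the shTet3 libraries. Against *Nr4a2* it was 10.2 percentage points. Both gave p = 0.33 in a two-sided exact permutation test over the 4 libraries, the smallest this design allows, and the bodies also differed in their levels in control NPCs.

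The coding exon of *Nr4a3* from 6525 to 6715 bases after the first TSS held 20 CpGs covered in all libraries. Their mean was 22.9% and 27.8% in BS of shScr and 23.8% and 31.5% in BS of shTet3. In oxBS it was 15.3% and 25.3% in shScr against 20% and 36.4% in shTet3. In each shRNA and kind of library replicate 2 was the higher one, and the shRNAs overlapped in both kinds.

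Of 35 body CpGs, 1 was a hyper-DMP in the BS libraries, against 0.0877% of the CpGs of all genes outside promoters. It lies in the first intron at position 48059513, 1488 bases after the first TSS. Its level was 0% in both shScr libraries, from 25 and 22 calls, which allows up to 12.0% and 13.6%. In shTet3 it was 24.1% (Wilson interval 12.2 to 42.1) and 6.52% (2.24 to 17.5), a pooled difference of 13.3 percentage points (*q* = 0.00952). Both shTet3 libraries were above both shScr libraries, but the interval of shTet3 replicate 2 reached below both limits of shScr, and that of replicate 1 below one of them. The call was lost with a coverage minimum of 5, with Fisher's exact test, with the F test, without either shScr replicate and without shTet3 replicate 1, where the difference was 6.52, and the difference was 24.1 without shTet3 replicate 2, while with a minimum of 20 there were 2 hyper-DMPs in this body. The oxBS levels were 0% and 0% in shScr, from 11 and 10 calls, and 20.4% and 4.55% in shTet3.

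In the oxBS libraries the body of *Nr4a3* had 2 hyper-DMPs and 1 hypo-DMP among 32 CpGs, and 0 hyper-DMPs without shScr replicate 1. Of the CpGs of all genes outside promoters, 0.136% were hyper-DMPs and 23.0% hypo-DMPs in oxBS. Both hyper-DMPs of this body lie in the coding exon, and one of them, at position 48064596, lies in a promoter only when the TSSs of all annotated transcripts are used. Its oxBS levels were 9.30% and 20% in shScr against 26.7% and 38.6% in shTet3. The BS levels were 17.1% and 27.5% in shScr against 17.3% and 26.3% in shTet3 (pooled difference 1.15, *q* = 1.0), nearly the same in the shRNAs. At position 48064623, oxBS levels were 5.81% and 20% in shScr against 30.1% and 37.1% in shTet3. There too the BS libraries overlapped, with 20.7% and 27.1% in shScr against 21.2% and 35.2% in shTet3 (6.39, *q* = 0.430). The hypo-DMP, at position 48060186 in the first intron, had 20.7% and 2.44% in shScr against 0% and 0% in shTet3.

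Over the loci as a whole, 14 of 295 CpGs were hypo-DMPs and 1 was a hyper-DMP in the BS libraries, against 13.8% and 0.0621% of all CpGs. In the oxBS libraries 14 and 5 of 308 were, where 13.9% and 0.0814% of all CpGs were called. Of the CpGs covered in all 8 libraries, 115 of 129 in promoters and 64 of 65 upstream stayed under 10% in every library. Those could not fall by more than 10 points, so the lower shares of hypo-DMPs do not show that the loci resisted the loss. Both shTet3 libraries were below both shScr libraries at 34 CpGs and above at 11 in BS, against 26.1% and 1.96% of all CpGs. In oxBS they were below at 35 and above at 20, against 26.3% and 2.04% of all CpGs. These shares were not matched for region or level either. Of the 289 CpGs tested in both kinds of library, 4 were hypo-DMPs in both, which is 4 of the 14 called in BS and 4 of the 13 called in oxBS. None of the 5 oxBS hyper-DMPs was one in BS. All hypo-DMPs of the BS libraries lay in gene bodies.

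**Figure D4:**
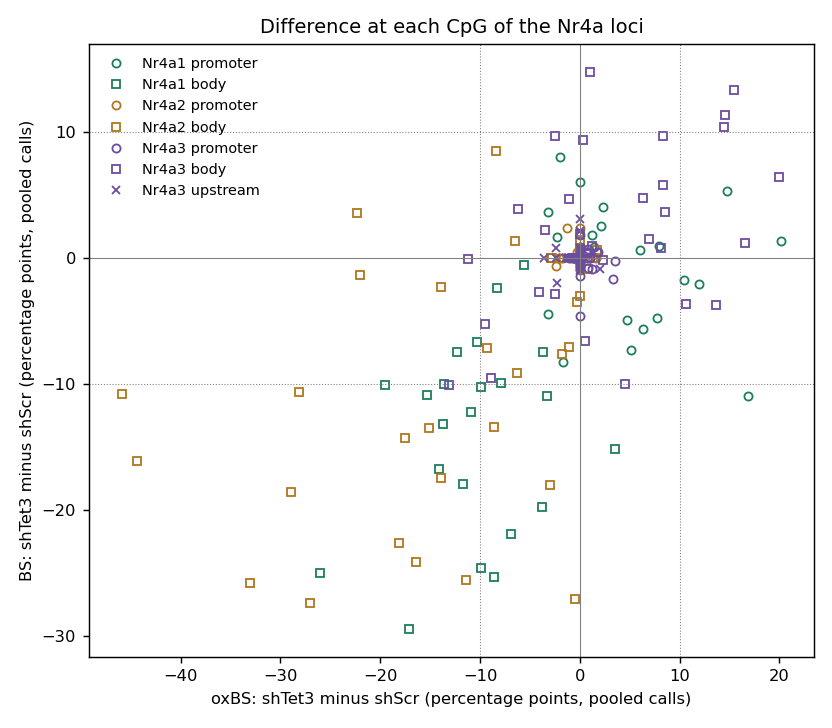
Pooled difference between shTet3 and shScr at each CpG of the Nr4a loci in oxBS (horizontal) and BS (vertical) libraries, in percentage points, with dotted lines at 10 and −10. Body CpGs of Nr4a1 and Nr4a2 lie mostly at the lower left, and none of the 5 CpGs called higher in oxBS was called in BS.

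Genes that work with the receptors were compared by their promoters. Of 18 immediate early genes, which are induced by the same stimuli, 17 had promoter CpGs tested in BS, and of their 595 CpGs none was a hyper-DMP and 4 were hypo-DMPs (Fisher's exact test: 0 and 4; F test: 0 and 0; unadjusted p under 0.05: 10 higher and 20 lower). Over all promoters, as given above, 0.0395% of CpGs were hyper-DMPs and 1.86% hypo-DMPs, so that the share of these genes was not above the background. The median difference of the genes was −0.0773 percentage points, against −0.145 over all genes. The 4 lay in *Npas4*, a neuronal transcription factor, with 2 of 14 CpGs and mean BS levels of 50.5% and 44.0% in shScr against 37.4% and 37.8% in shTet3, and in *Arc*, a protein of synapses, with 2 of 18 CpGs. Like *Nr4a1*, these promoters were not free of methylation, while those of *Fos*, *Jun* and *Egr1* were under 1% in all BS libraries. In the oxBS libraries, 0 CpGs of the immediate early genes were hyper-DMPs and 13 of 584 were hypo-DMPs, against 0.0542% and 2.00% of all promoter CpGs.

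Among the retinoid X receptors, which are partners of *Nr4a1* and *Nr4a2*, *Rxra* and *Rxrb* had CpGs tested, and 0 of 131 were DMPs in BS in either direction (Fisher's exact test and F test: 0; unadjusted p under 0.05: 1 higher and 1 lower), as were 0 of 149 in oxBS. The median difference of these genes was −0.0542 percentage points. Of 8 genes of dopaminergic neurons, 6 were tested, with 1 hyper-DMP and 9 hypo-DMPs among 127 CpGs in BS (Fisher's exact test: 0 and 9; F test: 0 and 0; unadjusted p under 0.05: 5 higher and 21 lower) and a median difference of −1.28. Against the 0.0395% and 1.86% of all promoter CpGs, these shares were higher, but most of the calls lay in 1 gene. *Slc6a3*, the dopamine transporter, held 8 of these hypo-DMPs among 19 CpGs, with mean levels of 46.3% and 40.4% in shScr against 27.9% and 35.4% in shTet3, and the groups did not overlap. *Drd2*, a dopamine receptor, held the hyper-DMP, which was lost with Fisher's exact test, and the other hypo-DMP. In oxBS the counts were 1 and 16 of 122 CpGs, against 0.0542% and 2.00% of all promoter CpGs.

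The promoters most like each member over the 8 libraries were found by Pearson's correlation of mean promoter levels, among genes with at least 10 CpGs covered in all libraries and a range at least as wide. The points share their libraries and depths, and BS and oxBS libraries are taken to share DNA, so the values are only a description. For *Nr4a1* they were *Tspan9*, a tetraspanin (r = 0.825 over 8 libraries, among 943 genes), and *Peg10* and *Sgce* (r = 0.799), imprinted neighbours with a shared promoter. The level of *Peg10* was 47.2% and 8.95% in BS of shScr and 27.4% and 30.9% in BS of shTet3, so that shScr replicate 1 was the highest library, as in *Nr4a1*. For *Nr4a2* they were *Usp43*, *Rpusd2* and *Iqsec2* (r = 0.940, 0.899 and 0.898), and for *Nr4a3* *9030624G23Rik* (r = 0.888) and *Sbds* and *Tyw1*, which have the same CpGs (r = 0.879). The whole range of *Nr4a2* over the libraries was 0.212 percentage points and that of *Nr4a3* was 0.540, so these likenesses rest on a few calls.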

How the data were processed

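oxRRBS libraries of 4 groups (shScr or shTet3, BS or oxBS) with 2 replicates each were analysed, grouped by their labels. Per the methods and the submitters' processing notes, reads were trimmed by the authors (Trim Galore, RRBS mode), aligned to mm9 and called for methylation with Bismark, and versions are not given in the sources used here. The authors deposited the values of every library by CpG, namely a count of calls (coverage) and the share of C and of T among them in percent, without normalization and without pooling of replicates. Percent times coverage gave a whole number at every CpG (tolerance 0.02), and all CpGs had a coverage of at least 5. Libraries were amplified by PCR without molecular identifiers from 100 ng of DNA, so that Wilson intervals (95%), limits for 0 calls (3 counts) and tests cover counting error only.

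CpGs covered at least 10 times in each library of a comparison were tested with a binomial logistic regression on the shRNA, or on the kind of library, without an overdispersion term (likelihood ratio test, Benjamini-Hochberg adjustment over the whole table), computed from the counts with Python 3.11.15, numpy 2.4.6 and scipy 1.17.1. The authors named methylKit for this step. The test was checked on simulated calls, drawn at the same level for both replicates of a group. That check therefore does not cover spread between replicates. Region levels were unweighted means over CpGs. Genes and TSSs were those of GENCODE vM1, and sequences were read from NCBIM37. CpGs named in the text were those called in either contrast, at most 6 per gene, region and contrast by size, with the CpGs next to the thresholds in the *Nr4a1* promoter; list genes were those with most BS calls, and like genes those with the 3 highest correlations. The CpG at −14, that at 48057964, *Fos*, *Jun*, *Egr1*, *Egr2* and *Egr4* were named outside this rule, after their values were seen. The members, lists and rules were chosen with earlier results of these data known. The pairing is inferred from the numbers in the labels. A BS and an oxBS library of 1 shRNA that bear the same number were taken to come from the same DNA, which the labels do not state. Their deviations across CpGs correlated at 0.509 in shScr and 0.246 in shTet3. In contrast, shScr and shTet3 libraries share only a number. The alternatives were coverage minimums of 5 and 20, dropping the CpGs of highest coverage (past the 99.9th percentile), a replicate block, an F test, Fisher's exact test, unweighted differences, agreement of replicates, read weighting, wider promoters, all TSSs and leaving out each replicate. Expression was not analysed here.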

Additional observations from a re-analysis of the deposited data

Results flagged for a closer look

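BS minus oxBS had one sign in both shScr replicates and the opposite sign in both shTet3 replicates in 3 of the gene regions, and the difference between the shRNAs was not tested. In the body of *Nr4a1*, it was 1.5 and 0.0828 percentage points in shScr and −4.15 and −0.431 in shTet3, a difference of −3.08. In the body of *Nr4a2*, it was −1.57 and −0.682 in shScr and 0.554 and 2.11 in shTet3, a difference of 2.46. In the promoters of *Nr4a2*, it was −0.0782 and −0.104 in shScr and 0.150 and 0.153 in shTet3, a difference of 0.243 at levels near 0.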

How the results depend on the processing

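The alternatives changed no sign of a called CpG. In the BS libraries, the 14 hypo-DMPs became 0 with the F test and ranged from 5 to 8 when single libraries were left out, with 8 without shScr replicate 1, 6 without shScr replicate 2, 5 without shTet3 replicate 1 and 8 without shTet3 replicate 2, where fewer calls were tested. The 1 hyper-DMP became 0 with a coverage minimum of 5, the F test or Fisher's exact test, 2 with a minimum of 20, and 0 to 2 without single libraries. In the oxBS libraries, the 14 hypo-DMPs became 8 with a minimum of 20, 0 with the F test and 9 to 13 without single libraries, and the 5 hyper-DMPs became 0 with the F test and 2 to 5 without single libraries (2 without shScr replicate 1). With the replicate block, the counts of hypo-DMPs and hyper-DMPs were 14 and 1 in BS and 14 and 5 in oxBS, and CpGs with BS above oxBS in shScr numbered 2 instead of 1, or 0 with the F test. Same-numbered shScr and shTet3 libraries did not deviate together (r = −0.0282 in BS and −0.0361 in oxBS across CpGs), so that this block of shRNAs rests on a number alone.

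The BS difference of the *Nr4a1* promoter became 2.61 with read weighting and −4.60 to 1.97 without single libraries. That of the *Nr4a2* promoters became 0.104 with a minimum of 5 and −0.993 with wider promoters, which take in CpGs counted as body before, and that of its body −15.4 with wider promoters and −12.7 to −3.88 without single libraries. That of the *Nr4a3* promoter became 0.0788 with read weighting, 0.710 with all TSSs and −0.230 to 0.114 without single libraries, that of its body 0.255 with a minimum of 5 and 2.94 with read weighting, and that of its upstream stretch −0.183, −0.00664 and −0.0276 with a minimum of 5, a minimum of 20 and wider promoters, and −0.0381 to 0.116 without single libraries. The oxBS difference of the *Nr4a1* promoter became 5.94 with read weighting. That of the *Nr4a2* promoters became −0.105, −0.221, −0.225 and −1.28 with minimums of 5 and 20, read weighting and wider promoters, and that of its body −4.51 with a minimum of 20 and −19.4 with wider promoters. That of the *Nr4a3* promoter became 0.551, −0.364 and 1.54 with read weighting, wider promoters and all TSSs, and 0.355 to 0.474 without single libraries, that of its body −0.536 to 7.47 without single libraries, and that of its upstream stretch −0.187 with wider promoters. The cause was not tested where none is named. Under the alternatives not named, other than leaving out a library, region differences moved by less than the pooled SD between replicates and counts over the loci by less than 1.5 times. With 2 libraries a group, differences of region means could not pass any threshold, and near 0 levels rest on single calls. For the same reason the F test could hardly call any CpG, so that its counts of 0 do not decide whether a call holds.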

Other observations

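A stretch of 6 intron CpGs in *Nr4a2*, from 56964936 to 56964975 on chromosome 2, had levels far apart in the shScr replicates. Its mean level was 67.2% in BS and 67.0% in oxBS of shScr replicate 1, and 22.0% and 29.3% in those of shScr replicate 2. The shTet3 libraries had 29.5% and 37.7% in BS, between the shScr replicates, and 33.2% and 25.5% in oxBS, where replicate 2 was below both shScr replicates. The difference between the shScr replicates was thus present in both BS and oxBS libraries.

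In the first intron of *Nr4a3*, the 5 CpGs from 2108 to 2170 bases after the first TSS had low levels, of 11.3% and 9.48% in BS of shScr and of 11.3% and 1.82% in BS of shTet3. The 2 CpGs listed about 3 kb upstream of the *Nr4a1* TSS lacked the coverage for a test in BS. In oxBS, 1 of them was a hypo-DMP, and their mean level was 86.4% and 100.0% in shScr and 81.1% and 78.4% in shTet3.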
